A study of Mus musculus with 53 samples.

Results

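The genes described here make the immunoproteasome and load its products onto MHC class I. They are the inducible catalytic subunits Psmb8, Psmb9 and Psmb10, the proteasome activator subunits Psme1 and Psme2, the peptide transporter subunit Tap1, the loading chaperone tapasin (Tapbp) and the class I light chain B2m. They were chosen by symbol: an array probe set was taken if it carried exactly 1 gene symbol and that symbol was one of the 8. Where a gene had several probe sets, the brightest one on average over all arrays was used. Of the 8 genes 7 were measured, by 13 probe sets, among 18193 genes with a probe set of their own and 13807 genes tested. The only probe set of Psme2 also carries another symbol, and the gene is not analysed here. Psmb10 was picked because its signal was low in both mutants at day 6, so the comparison of the mutants with wild type at that day is given as a description, without a test.

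The study compared mouse embryonic stem (ES) cells that lack a polycomb protein, Ezh2 or Eed, with wild-type ES cells, before and during differentiation. Of wild-type ES cells there were 7 arrays at day 0 (lines J1, CJ7 and E14tg1), with further arrays from day 2 (4; J1 and CJ7), day 6 (5; J1 and CJ7) and day 8 (2; CJ7) of differentiation after LIF, which keeps ES cells from differentiating in culture, was withdrawn. Of Ezh2-null ES cells there were 6 arrays at day 0, 4 at day 2, 5 at day 6 and 2 at day 8. Of Eed-null ES cells 5 arrays were from day 0, 2 from day 2 and 2 from day 6. Which line either mutant was made from is not given in the labels, and the effect of a genotype and that of its line cannot be told apart here. All 3 genotypes were grown on feeder fibroblasts and plated briefly so that feeders attached and were depleted. The other groups were mesoendodermal cells with GFP driven by the T (brachyury) promoter, called T-GFP cells (2 arrays), neuronal progenitors with a Sox1-GFP reporter (3), neural stem cells, NSC (2), and mouse embryonic fibroblasts, MEF (2). Arrays of a group are numbered as biological replicates, and what was repeated (a culture, a differentiation or an extraction) is not stated, so p-values measure the spread between these samples, which may be technical. In bulk RNA, fewer cells of a type and less RNA per cell cannot be told apart.

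The proteasome cuts proteins into peptides in a chamber whose active sites lie on the subunits Psmb5, Psmb6 and Psmb7. Under interferon signalling Psmb8, Psmb9 and Psmb10 are made and take the places of Psmb5, Psmb6 and Psmb7, respectively, in new proteasomes, which changes the cleavage preference toward peptides that fit class I molecules. The activator of Psme1 and Psme2 opens the chamber, Tap1 with Tap2 carries peptides into the endoplasmic reticulum, and tapasin holds the empty heavy chain and B2m in place until a peptide binds. Undifferentiated ES cells are known for low surface class I.

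The stretches upstream of the transcription starts are shown because the members changed together in several comparisons and many interferon-regulated promoters carry short known motifs. Each is the 250 bases before the RefSeq start on GRCm38.p6, on the strand of the gene, and capitals mark a match to a searched motif. All 8 members have such a window in RefSeq.

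Psmb8 (chr17:34197945-34198194, plus strand): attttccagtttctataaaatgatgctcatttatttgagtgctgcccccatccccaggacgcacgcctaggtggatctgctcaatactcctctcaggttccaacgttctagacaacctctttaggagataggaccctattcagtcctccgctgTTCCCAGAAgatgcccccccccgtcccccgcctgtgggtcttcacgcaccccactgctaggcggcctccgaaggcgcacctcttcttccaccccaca
B2m (chr2:122147437-122147686, plus strand): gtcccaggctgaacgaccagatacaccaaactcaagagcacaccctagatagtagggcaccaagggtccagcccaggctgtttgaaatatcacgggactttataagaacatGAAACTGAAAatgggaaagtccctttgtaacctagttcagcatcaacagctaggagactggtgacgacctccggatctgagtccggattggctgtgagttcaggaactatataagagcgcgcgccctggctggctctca
Tap1 (chr17:34187306-34187555, plus strand): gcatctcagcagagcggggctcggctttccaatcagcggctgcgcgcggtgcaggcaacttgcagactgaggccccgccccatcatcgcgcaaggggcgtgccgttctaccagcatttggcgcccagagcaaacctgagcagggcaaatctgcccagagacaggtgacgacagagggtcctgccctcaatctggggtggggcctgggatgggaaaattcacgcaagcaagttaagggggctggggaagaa
Psmb10 (chr8:105938393-105938642, minus strand): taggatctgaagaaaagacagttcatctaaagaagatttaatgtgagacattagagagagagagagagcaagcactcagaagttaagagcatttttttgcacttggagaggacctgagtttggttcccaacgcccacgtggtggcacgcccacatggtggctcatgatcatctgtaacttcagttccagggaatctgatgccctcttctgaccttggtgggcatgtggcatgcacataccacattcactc

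Psmb8, Psmb9 and Tap1 lie side by side on chromosome 17, and Tapbp (33919478 to 33929290) lies on the same chromosome. Tap1 (34187556 to 34197225) and Psmb9 (34182030 to 34187330) start 225 bases apart and are read away from each other, so the Tap1 window shown holds 225 bases of the Psmb9 window as well. Psmb8 occupies 34198195 to 34201454 on chromosome 17, B2m 122147687 to 122153082 on chromosome 2 and Psmb10 105935728 to 105938392 on chromosome 8. Both strands were searched for 2 motif cores, and no motif match overlapped another. GAAANNGAAA, the core of the interferon response element, was in 978 of 32851 windows of the same length (2.98%). Among the members B2m held it, 139 bases before its start. TTCNNNGAA, the core of the gamma-activated site, was in 2306 windows (7.02%), and among the members Psmb8 held it, 97 bases before its start. The letters of the other members' windows matched neither core. The Psmb10 window held 3 CpG and 46.8% G or C, against medians of 6 CpG and 52.4% over all windows, while the windows of the other 7 members held 8 to 15 CpG.

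Signals are linear array intensities. Array medians ranged from 50.5 to 63, and the number of arrays limits the precision. Ezh2 signal was 1451 ± 247 (SD, n = 7) in wild-type and 214 ± 31.6 (n = 6) in Ezh2-null cells at day 0, while the Eed probe set was not lower in Eed-null cells (2956 ± 129.9 against 2536 ± 276) and checks nothing about that label. The cell types carried their markers. The summed signal of 4 mesoendoderm markers was 2904 to 4515 in T-GFP cells and 130.2 to 142.4 in Sox1-GFP cells, and that of 5 neural progenitor markers was 1130 to 1371 and 6562 to 6780. Arrays stood apart in 2 ways. By the behaviour of paired probe sets, the arrays of days 2 and 6 fall into a first set of 8 and a second set of 14. The second holds wild-type and Ezh2-null replicates 3 and up of those days and all Eed-null arrays of those days. At day 0 the summed signal of 7 fibroblast markers was 275.3 to 338.6 on 3 wild-type arrays (replicates 1 to 3) and 942.8 to 1708 on the other 4. Of these, replicate 4 is CJ7 and replicates 5 to 7 are E14tg1, a line with no later arrays. In values with replicates 4 to 7 alone, line and fibroblast sum cannot be told apart. Among the Eed-null arrays, replicates 1 to 4 had sums of 3703 to 7154, and replicate 5 had 405.3. In wild-type cells at day 2 the first set is the J1 arrays and the second the CJ7 arrays, so array set and line cannot be told apart there. Values within each set, and with wild-type replicates 4 to 7 alone at day 0, are therefore given beside many of the results of the genes named. The day 0 arrays belong to neither set. A change from day 0 given within a set therefore compares its arrays with day 0 arrays outside it. Array set and day cannot be told apart in such a change. Differences are log2 differences ± SE from limma on log2(signal + 32), which understates changes of dim probe sets. A gene is called, and said to rise or fall, at a Benjamini-Hochberg adjusted p under 0.05 and a difference of at least 2-fold (1 on the log2 scale).

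Wild-type cells raised most of these genes when LIF was withdrawn. At day 2, 5 of the 7 members were called against day 0, where 3.43% of all genes were called in either direction. At day 6, 5 of the 6 members that were tested were called (10.3% of all genes called), and at day 8, 4 of 7 (11.4%). All members called in these comparisons were higher than at day 0. Psmb8, Tap1, Tapbp and B2m rose at all of these days, Psme1 at day 6 and Psmb10 at day 2. Psmb9 did not reach the fold minimum at any of them. In Ezh2-null cells 2 of 7 were called at day 2 (2.67% of all genes called), 2 of 6 at day 6 (16.3%) and 2 of 7 at day 8 (8.58%). Eed-null cells had 1 of 7 called at day 2 (3.51%) and 3 of 6 at day 6 (10.1%). Psmb10 entered no day 6 count, since its day 6 levels chose it. The comparisons with day 0 of a genotype share its day 0 arrays. With the wild-type day 2 arrays of the first set alone against the day 0 arrays, 3 of the 7 members passed. With those of the second set alone, 3 of the 7 passed as well. With wild-type replicates 4 to 7 alone at day 0, which are mostly E14tg1, the count was 1 at day 2 and 1 at day 8.

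**Figure D1:**
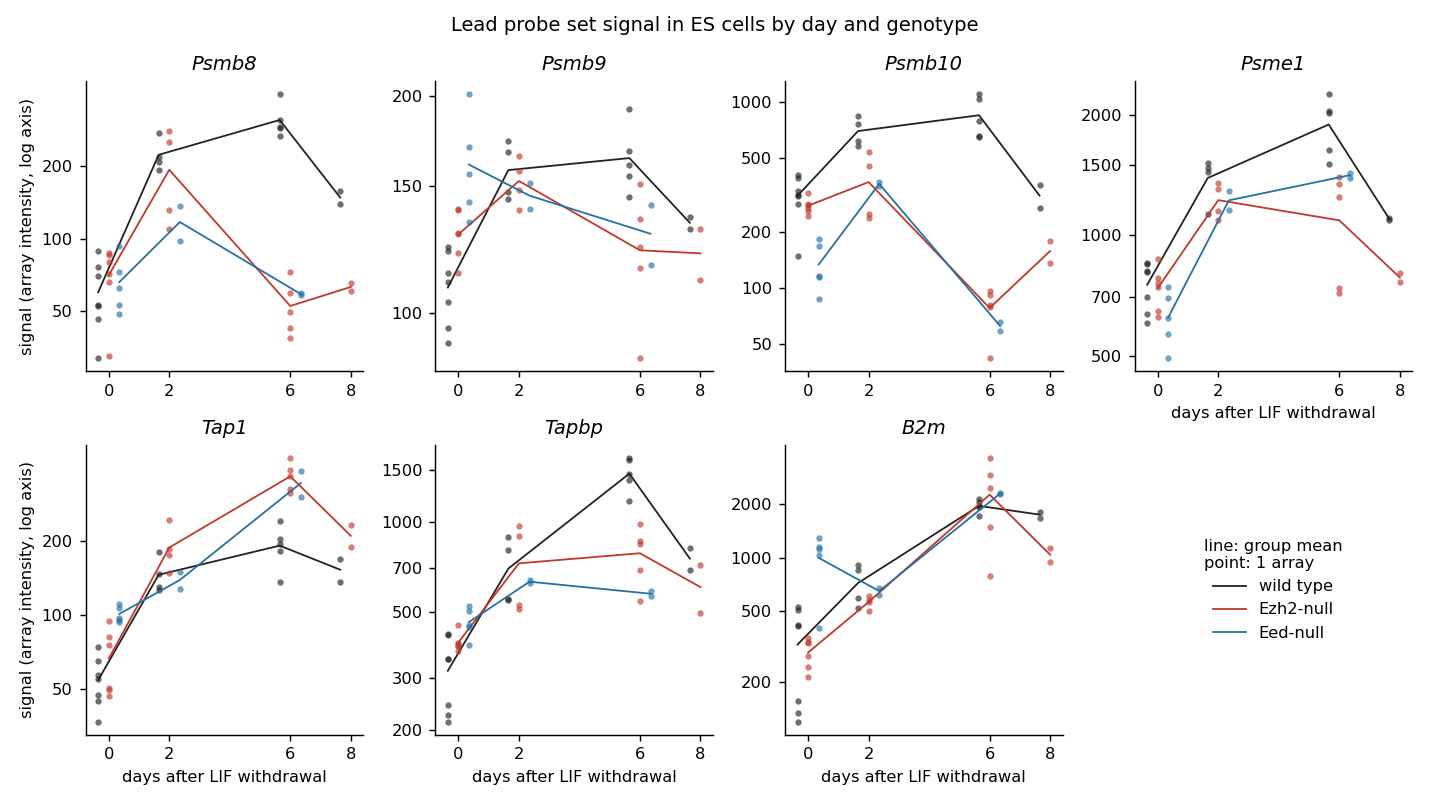
Signal of the lead probe set of the 7 measured members (log axis, array intensity) against days after LIF withdrawal, with 1 point per array, lines through the group means and genotypes shifted sideways for display. Wild-type Psmb8 and Psmb10 lie high at days 2 and 6, while both mutants return to or below their day 0 level at day 6; Tap1 and B2m rise in all 3 genotypes.

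Psmb8 replaces Psmb5, the subunit with chymotrypsin-like activity. Its signal in wild-type cells at day 0 was 31.8 at the lowest, 53.1 at the median and 88.7 at the highest of 7 arrays. At day 2 it was 274.9, 218.1, 208.9 and 192.8, and at day 6 it was 268.1, 291.1, 400.2, 289.4 and 313.7. Every array of days 2 and 6 thus lay above every day 0 array. The difference was 1.5 ± 0.18 at day 2 (adjusted p = 1.0e-08) and 1.93 ± 0.17 at day 6 (adjusted p = 3.2e-13). At day 8 the 2 arrays gave 139 and 157.7, a difference of 1.00 ± 0.23 (adjusted p = 3.5e-04) that lies at the fold minimum. The minimum was missed without day 0 replicate 1, 2, 3 or 5 or day 8 replicate 2 (0.92 to 0.99), and with replicates 4 to 7 alone at day 0 (0.81). It was also missed with arrays centred on their median (0.85), quantile normalisation (0.84), the mean of both probe sets (0.65), a pseudocount raised 4-fold (0.56) and CJ7 wild-type arrays only (0.97).

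In Ezh2-null cells Psmb8 rose at day 2 and was back at its day 0 level at day 6. Its signal was 32.5 to 87.5 at day 0, and 281.6, 251.9, 131.8 and 109.6 at day 2. The day 2 rise was 1.09 ± 0.18 (adjusted p = 1.4e-05). The first 2 of these arrays belong to the first array set and the others to the second, and the rise was 1.57 within the first and 0.60 within the second, where it missed the fold minimum. It was also under the minimum without day 0 replicate 2 (0.96), day 2 replicate 1 (0.90) or day 2 replicate 2 (0.95). At day 6 the 5 arrays gave 38.6, 42.3, 49.4, 59.2 and 72.4, inside the day 0 range (-0.26 ± 0.17, adjusted p = 0.18). At day 8 they gave 60.6 and 65.2. Eed-null cells had 48.7 to 92.9 at day 0, 137 and 97.6 at day 2 (0.61 ± 0.24, adjusted p = 0.057), and 58.1 and 59.3 at day 6 (-0.09 ± 0.24). The second Psmb8 probe set was dim, with 26.9 ± 13.9 in wild-type cells at day 6 (n = 5) and 4.26 ± 1.90 in Ezh2-null cells (n = 5).

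Psmb10, which replaces Psmb7 and its trypsin-like site, ran from 42.1 to 1105 over the ES cell arrays. Wild-type arrays at day 0 gave 149.8 at the lowest, 318.2 at the median and 408.5 at the highest. The lowest was CJ7 replicate 3, and the next was 284.1. At day 2 the signal was 841.3, 760.3, 581.5 and 618, above all day 0 arrays, a rise of 1.11 ± 0.20 (adjusted p = 2.4e-05). It fell under the fold minimum without day 0 replicate 3 (0.97), in the second array set alone (0.91; 1.31 in the first) and with replicates 4 to 7 alone at day 0 (0.88). At day 6 the arrays gave 648.1, 661.6, 1105.3, 1046.8 and 798.1, which is 1.37 ± 0.18 above day 0, and at day 8 they gave 270.1 and 359.4, back in the day 0 range (0.04 ± 0.25, adjusted p = 0.92).

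The Ezh2-null arrays gave Psmb10 signals of 245.8 to 326.3 at day 0. At day 2 they gave 543.5 and 456.4 in the first array set and 237.3 and 251.5 in the second, so that no rise passed (0.31 ± 0.20, adjusted p = 0.25). The values at day 6 were 92.2, 96.2, 80.9, 79.5 and 42.1, below every day 0 array of the same genotype, and those at day 8 were 180.2 and 136.6. The day 8 value was 0.71 lower than day 0 on the log2 scale (-0.71 ± 0.26, adjusted p = 0.028), under the fold minimum. Eed-null cells started lower, at 86.9, 116.7, 168.8, 115 and 182.7. They rose to 354.3 and 373.3 at day 2 (1.29 ± 0.26, adjusted p = 5.0e-04) and stood at 58.8 and 66.1 at day 6. The day 2 signals of both Eed-null arrays lay above, and the day 6 signals below, every day 0 array of that genotype.

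Psmb9, which replaces Psmb6 and its caspase-like site, moved little. Its group means ran from 91.6 ± 2.47 in MEF (n = 2) to 184 ± 5.87 in T-GFP cells (n = 2). In wild-type cells it was 109 ± 12.6 at day 0 (n = 7), 158 ± 14.6 at day 2 (n = 4) and 164 ± 17.8 at day 6 (n = 5). The differences of 0.44 ± 0.09 (adjusted p = 2.7e-04) and 0.48 ± 0.09 (adjusted p = 7.8e-06) stayed under the fold minimum, although the arrays of days 2 and 6 lay above those of day 0 without overlap. In Eed-null cells Psmb9 was higher than in wild type at day 0, by 0.45 ± 0.09 (adjusted p = 4.8e-05), also under the minimum.

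The constitutive counterparts did not follow. Psmb5 signal was 2990 ± 230 at day 0 and 3184 ± 201 at day 6 in wild-type cells (0.09 ± 0.09, adjusted p = 0.40). Psmb6 differed by 0.19 ± 0.08 and Psmb7 by 0.11 ± 0.07. The log2 difference between each inducible subunit and its counterpart was taken per array, and 11 changes of it against wild-type day 0 were tested with a two-sided exact permutation test. That of Psmb8 over Psmb5 was higher by 1.39 at day 2 (n = 4 and 7, exact p = 0.0030, adjusted p = 0.011) and by 1.83 at day 6 (n = 5 and 7, exact p = 0.0013, adjusted p = 0.011). These p-values are the smallest the group sizes allow. Psmb10 over Psmb7 was higher by 1.08 at day 2 (exact p = 0.0030, adjusted p = 0.011), and its day 6 value was not tested. Psmb9 over Psmb6 was higher by 0.36 and 0.29 (adjusted p = 0.048 and 0.028 from the exact test). With 1 array left out, the day 2 result was lost in 9 of 11 cases and the day 6 result in 5 of 12. In undifferentiated Ezh2-null cells Psmb8 over Psmb5 differed by 0.21 (adjusted p = 0.24) and Psmb10 over Psmb7 by -0.07 (adjusted p = 0.83), while Psmb9 over Psmb6 was higher by 0.26 (adjusted p = 0.028), all from the exact test.

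Psme1, a subunit of the activator that opens the proteasome chamber, was among the brighter probe sets. Wild-type arrays gave 601.5 at the lowest, 807.7 at the median and 853 at the highest at day 0, and 1439, 1129, 1518 and 1478 at day 2. At day 6 they gave 1634, 1509, 2254, 2018 and 2051. All day 2 and day 6 arrays lay above day 0, with differences of 0.86 ± 0.14 (adjusted p = 6.3e-06, under the fold minimum) and 1.29 ± 0.13 (adjusted p = 3.6e-11). In Ezh2-null cells the day 6 arrays split by array set. The first set gave 717.2 and 737.1, in the day 0 range of 623.5 to 873.4, and the second gave 1400, 1347 and 1248. The pooled difference was 0.50 ± 0.14, that within the first set -0.01 and that within the second 0.83. Eed-null arrays ran from 493 to 741.2 at day 0 and gave 1158 and 1288 at day 2 (0.95 ± 0.19, adjusted p = 3.4e-04, under the minimum; 1.01 and 1.02 without day 0 replicate 3 or day 2 replicate 1). At day 6 they gave 1394 and 1434, a rise of 1.15 ± 0.19 (adjusted p = 4.9e-06).

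Tap1, the transporter subunit that pairs with Tap2, rose in all 3 genotypes by day 6. Wild-type signal was 36.9 at the lowest, 55.1 at the median and 74.4 at the highest at day 0. It was 130.2, 180, 126.2 and 147.7 at day 2 and 204, 242, 194.2, 137 and 182.5 at day 6. The rise was 1.05 ± 0.14 at day 2 (adjusted p = 1.4e-07), 1.37 ± 0.13 at day 6 (adjusted p = 6.2e-12) and 1.11 ± 0.18 at day 8 (adjusted p = 2.4e-06). The day 2 rise missed the minimum fold without wild-type day 0 replicate 2 (0.99) or day 2 replicate 2 (0.96), in the second array set alone (0.98) and with replicates 4 to 7 alone at day 0 (0.93). At day 8 it was 0.98 without day 8 replicate 2 and 0.995 with replicates 4 to 7 alone.

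Ezh2-null arrays gave Tap1 signals of 46.8 to 95 at day 0. At day 2 they gave 148.3, 175.5, 185.8 and 244, a rise of 1.17 ± 0.14 (adjusted p = 4.6e-08) that was 0.998 in the first array set alone and 1.34 in the second. At day 6 they gave 315.7, 390.3, 436.8, 327 and 367.3 at day 6, a rise of 2.04 ± 0.14 (adjusted p = 8.1e-17). All 5 lay above the highest wild-type array of day 6. Eed-null cells went from 94 to 110.9 at day 0 to 385.9 and 303.8 at day 6, a rise of 1.49 ± 0.19 (adjusted p = 2.7e-08). Tap1 has 4 probe sets, and the group means of the other 3 lay below the array medians. With the mean of all 4 the rises were 0.41 in wild-type, 0.57 in Ezh2-null and 0.46 in Eed-null cells at day 6, so all 3 calls rest on the lead probe set.

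Tapbp encodes tapasin, which bridges the transporter and the empty class I molecule. Wild-type arrays at day 0 gave 214.1 at the lowest, 347.4 at the median and 422.7 at the highest. They gave 552.7, 546.5, 892.1 and 806.5 at day 2, and 1182, 1387, 1617, 1456 and 1647 at day 6. All lay above the day 0 arrays, and the differences were 1.08 ± 0.17 (adjusted p = 3.4e-06) and 2.13 ± 0.16 (adjusted p = 4.7e-15). The day 2 difference was 0.78 in the first array set alone, 1.38 in the second, 0.95 without day 2 replicate 3, and 0.79 with replicates 4 to 7 alone at day 0. At day 8 the arrays gave 693.5 and 818 (1.21 ± 0.22, adjusted p = 1.3e-05; 0.92 with replicates 4 to 7 alone at day 0).

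In Ezh2-null cells the Tapbp difference at day 2 was 0.78 ± 0.17, under the fold minimum, and 1.18 in the first array set alone. The signal was 370.2 to 452.2 at day 0 and 542.7, 693.5, 989, 866.7 and 846.2 at day 6. This was 0.91 ± 0.16 above day 0 (adjusted p = 5.8e-06), under the fold minimum. It was 1.04 without day 6 replicate 1, 0.60 within the first array set and 1.13 within the second. Eed-null arrays went from 387.3 to 522.7 at day 0 to 564.9 and 586.8 at day 6 (0.30 ± 0.23, adjusted p = 0.30). The second Tapbp probe set went the same way, with 535 ± 228 in wild-type, 318 ± 152 in Ezh2-null and 257 ± 6.29 in Eed-null cells at day 6 (n = 5, 5 and 2).

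B2m, the light chain of class I molecules, had the highest fitted rise of the tested members in wild-type cells at day 6. The day 0 arrays gave 120.3, 134.1 and 157.3 in replicates 1 to 3 and 413.9, 417, 508.6 and 527 in replicates 4 to 7. At day 2 they gave 596.1, 524.3, 907.5 and 854.2, and at day 6 1717, 1914, 2122, 1954 and 2056. The day 6 arrays all lay above those of day 2, and the lowest day 2 array fell just under the highest of day 0. The differences were 1.23 ± 0.31 at day 2 (adjusted p = 0.0020), 2.66 ± 0.29 at day 6 (adjusted p = 2.5e-10) and 2.51 ± 0.40 at day 8 (adjusted p = 1.9e-06). With replicates 4 to 7 alone at day 0 they were 0.57 (adjusted p = 0.13), 2.00 (adjusted p = 6.9e-08) and 1.84 (adjusted p = 4.2e-05). The day 2 rise was 0.92 (adjusted p = 0.074) in the first array set alone. The second B2m probe set went from 275 ± 162 at day 0 to 1278 ± 121 at day 6 in wild-type cells (n = 7 and 5). Of 7 fibroblast markers 3 rose at day 6 (10.3% of all genes called), Col1a1 (2.61), Col3a1 (1.73) and Postn (1.19). At day 8, 4 rose (11.4%), Postn (5.16), Col3a1 (4.77), Col1a1 (3.27) and Col1a2 (2.24). The part of these markers in the wild-type B2m rises was not tested.

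B2m was also called higher at day 6 than at day 0 in both mutants. Fibroblast markers rose in the Ezh2-null comparison, as in wild-type cells, and fell in the Eed-null one. Ezh2-null arrays gave 214.9 to 356.5 at day 0 and 789.8, 1482, 3630, 2474 and 2906 at day 6, of which the first 2 belong to the first array set. The rise was 2.65 ± 0.30 (adjusted p = 3.8e-10), or 1.80 within the first set and 3.22 within the second. At day 8 it was 1.73 ± 0.41 (adjusted p = 7.7e-04), with 1135 and 941.3. The summed signal of 7 fibroblast markers was 343.2 to 1432 at day 0, 1627 to 5951 at day 6 and 5142 to 5295 at day 8 in these cells. At day 6 3 of the 7 markers rose (16.3% of all genes called), the collagen genes Col3a1 (3.39) and Col1a1 (1.95) and the matrix gene Postn (2.35). Eed-null arrays gave 1285, 1142, 1037, 1123 and 402 at day 0, 679.8 and 618.9 at day 2, and 2299 and 2288 at day 6. The day 6 difference was 1.27 ± 0.42 (adjusted p = 0.014). It was 0.98 without day 0 replicate 5, the array of 402, and lost its adjusted p without either day 6 array (0.088 and 0.086). The fibroblast sums were 405.3 to 7154 at day 0 and 1039 to 1067 at day 6 in Eed-null cells, where, unlike in the other genotypes, markers fell: Lox (-2.34), Col1a2 (-1.97) and Fbln2 (-1.86). The part of the fibroblast markers in these B2m differences was not tested.

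**Figure D2:**
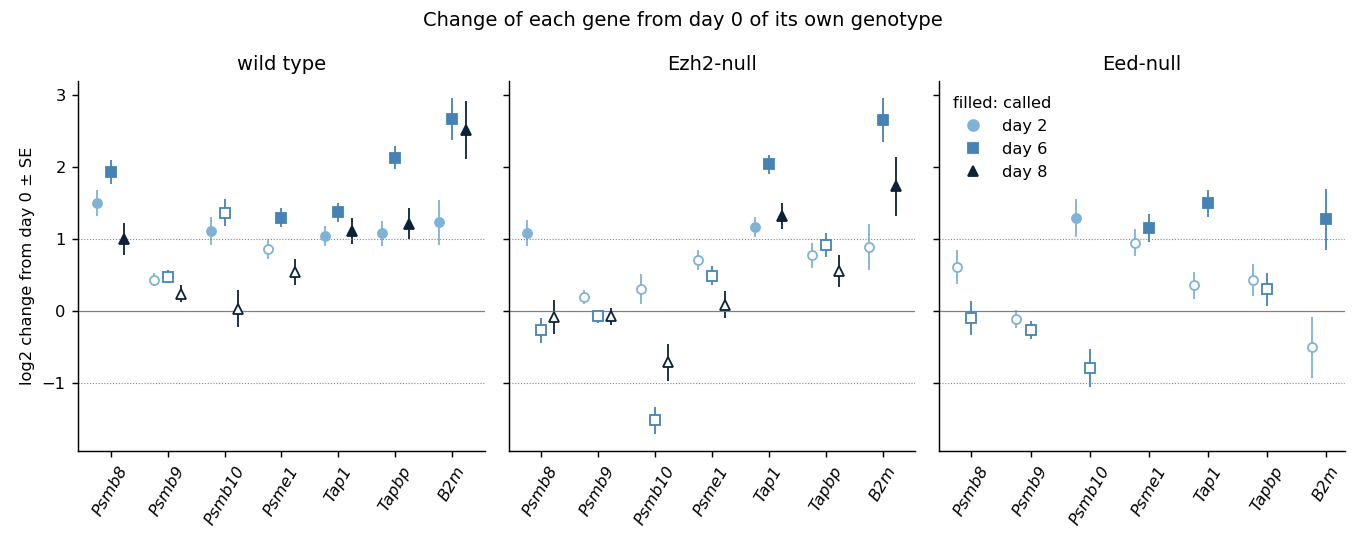
Log2 difference from day 0 of the same genotype, ± SE, for each measured member at day 2, 6 and 8, with filled symbols for called genes and dotted lines at the 2-fold minimum. Day 6 symbols of Psmb10 are open because that gene was not tested there; Tap1 and B2m are filled at day 6 in all 3 panels, Psmb8 and Tapbp in the wild-type panel.

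B2m signal at day 0 moved with the summed signal of 7 fibroblast markers in wild-type and Eed-null cells. The wild-type arrays with a sum of 275.3 to 338.6 had the B2m signals of 120.3 to 157.3, and those with 942.8 to 1708 had 413.9 to 527. Eed-null replicates 1 to 4, with sums of 3703 to 7154, had B2m of 1037 to 1285, and replicate 5, with 405.3, had 402. In Ezh2-null cells replicate 3 had the lowest sum, 343.2, and a B2m signal of 280.7, above the 242 and 214.9 of replicates 1 and 2 with sums of 588.1 and 592.6. The other 3 had sums of 1313 to 1432 and B2m of 330.6 to 356.5. MEF themselves had sums of 31548 and 36041 and B2m signals of 3725 and 4450. All 7 markers were tested genes, and Col1a1, a defining one, was 3.3 to 9.4 in wild-type replicates 1 to 3 and 9 in Eed-null replicate 5, against 517.9 to 787.6 in the other Eed-null arrays. The part of feeder RNA in the B2m values was not tested. At day 2 the wild-type sums were 376.6 to 585, below those of replicates 4 to 7 at day 0, and the B2m difference from these arrays was 0.57 (adjusted p = 0.13). At day 6 the wild-type sums were 1526 to 1923, and the B2m difference from replicates 4 to 7 was 2.00.

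**Figure D3:**
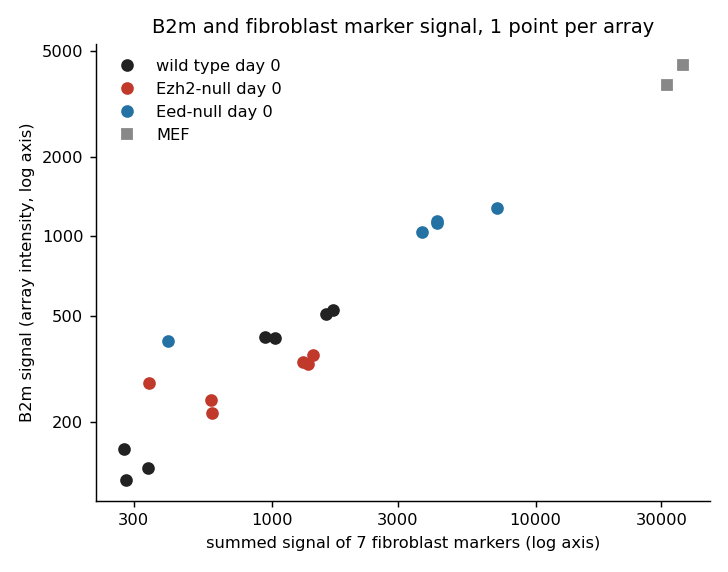
B2m signal against the summed signal of 7 fibroblast markers (both log axes, array intensity), 1 point per array, for the day 0 arrays of the 3 genotypes and for MEF. The 3 wild-type arrays with sums of 275.3 to 338.6 have the lowest B2m signals, and 4 of the 5 Eed-null arrays lie between the other ES cell arrays and MEF.

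Before differentiation, none of the 7 members was called in Ezh2-null against wild-type cells by limma (0.0507% of all genes called), with 2 at an unadjusted p under 0.05 (1480 of all 13807 genes). The difference of Psmb8 was 0.16 ± 0.16, of Psmb10 -0.12 ± 0.18, of Tap1 0.18 ± 0.12 and of B2m 0.04 ± 0.28. Eed-null cells at day 0 had 2 of 7 called (2.26%): Psmb10 was lower by 1.05 on the log2 scale (-1.05 ± 0.18, adjusted p = 1.4e-05) and B2m higher by 1.62 ± 0.29 (adjusted p = 1.9e-05). For Psmb10 3 of the 5 Eed-null arrays lay below all wild-type arrays and the other 2 above wild-type replicate 3 only. Its difference was -1.28 with replicates 4 to 7 of wild type alone, -0.85 without E14tg1, -0.67 (adjusted p = 0.052) against CJ7 alone, and -0.90 with the replicate block. It was -0.93, -0.99 and -0.98 without Eed-null replicate 1, wild-type replicate 6 or wild-type replicate 7. The B2m difference was 0.96 with wild-type replicates 4 to 7 alone, and 4 of the 5 Eed-null arrays in it carry the high fibroblast sums given above. Tap1 (0.64 ± 0.13) and Tapbp (0.54 ± 0.16) were also higher in Eed-null cells at adjusted p under 0.05, below the fold minimum. Set against each other at day 0, the mutants differed in 1 of 7 members (2.20%), B2m, lower in Ezh2-null cells by 1.58 on the log2 scale (-1.58 ± 0.30, adjusted p = 5.4e-05). Psmb10 was higher there by 0.93 ± 0.19, and by 1.01 and 1.03 without Eed-null replicates 3 or 5.

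At day 2 none of the 7 was called in Ezh2-null against wild-type cells (0.123%), with 1 member at an unadjusted p under 0.05 by limma (1262 of all 13807 genes). That member was Psmb10, whose Ezh2-null arrays of 237.3 to 543.5 all lay below the wild-type arrays of 581.5 to 841.3 (-0.92 ± 0.22, adjusted p = 0.028, under the fold minimum). The difference was -0.65 (adjusted p = 0.25) within the first array set and -1.19 (adjusted p = 0.0070) within the second. It passed the minimum without Ezh2-null replicate 1 (-1.12) or 2 (-1.04) or wild-type replicate 3 (-1.0). In Eed-null cells limma called none at day 2 (1.04%), with 2 at an unadjusted p under 0.05 (2575 of all 13807 genes): Psmb8 (-0.78 ± 0.24, adjusted p = 0.056) and Psmb10 (-0.87 ± 0.27, adjusted p = 0.055). With the replicate block Psmb10 was called (-1.07, adjusted p = 0.0012). At day 8 limma called none in Ezh2-null cells (1.06%), with 3 members at an unadjusted p under 0.05 (1767 of all 13807 genes), among the 3 Psmb8 (-0.92 ± 0.28, adjusted p = 0.069) and Psmb10 (-0.86 ± 0.32, adjusted p = 0.16). Both Ezh2-null arrays lay below both wild-type arrays there for Psmb8 (60.6 and 65.2 against 139 and 157.7) and for Psmb10 (180.2 and 136.6 against 270.1 and 359.4).

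At day 6, which chose Psmb10, both mutants had far lower Psmb10 and Psmb8 signals than wild-type cells. The values are a description. Psmb10 was 852 ± 214 in wild-type cells (n = 5), 78.2 ± 21.4 in Ezh2-null cells (n = 5) and 62.5 ± 5.16 in Eed-null cells (n = 2), or -3.00 ± 0.20 and -3.19 ± 0.26 on the log2 scale. Psmb8 was 313 ± 51.6, 52.4 ± 13.7 and 58.7 ± 0.849, or -2.03 ± 0.18 and -1.91 ± 0.24. No mutant array of either gene overlapped a wild-type array. For Psmb10 the Ezh2-null difference was -2.44 in the first array set and -3.36 in the second, and for Psmb8 -2.10 and -1.98. The corresponding values were -0.73 and 0.53 for B2m, 0.59 and 1.01 for Tap1, and -1.08 and -0.65 for Psme1. Of the other members, Tapbp was -0.88 ± 0.17 in Ezh2-null and -1.28 ± 0.23 in Eed-null cells, and Psme1 was -0.82 ± 0.14 and -0.40 ± 0.19. Tap1 lay above wild type, by 0.84 ± 0.14 and 0.76 ± 0.19. B2m stood at 0.03 ± 0.31 and 0.23 ± 0.42, and Psmb9 at -0.36 ± 0.09 and -0.29 ± 0.12. The call threshold was passed by 2 members in Ezh2-null cells (3.03% of all genes) and by 3 in Eed-null cells (3.10%), counts from which nothing is read because the choice of the genes used them. The 2 comparisons share the wild-type arrays. The summed signal of 5 ES cell markers at day 6 was 2347 to 3268 in wild-type, 1363 to 8770 in Ezh2-null and 7274 to 7322 in Eed-null cells. Of these markers Esrrb (1.76 and 2.37), Nanog (1.22 and 1.72), Zfp42 (1.40 and 1.82) and Sox2 (1.33 and 1.66) lay above wild type past the threshold in Ezh2-null and Eed-null cells, respectively. Their part in the member differences was not tested.

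Whether the change from day 0 differed between genotypes was tested as an interaction, except at day 6. For Ezh2-null cells none of the 7 passed at day 2 in limma (0.0290% of all genes; 1 member at an unadjusted p under 0.05) or at day 8 (0.782%; 3 members). Of all 13807 genes 823 and 1348 had an unadjusted p under 0.05 by limma in these interactions. The Tapbp interaction at day 2 was -0.30 ± 0.24 and passed in the second array set alone (-1.01, adjusted p = 0.023). The Psmb8 interaction at day 8 was -1.08 ± 0.32 (adjusted p = 0.086), and it passed without Ezh2-null day 0 replicate 2 (-1.21, adjusted p = 0.031) and without E14tg1 (-1.21, adjusted p = 0.043). For Eed-null cells 1 of 7 passed at day 2 (2.63%). The B2m change from day 0 differed from that of wild type by -1.73 ± 0.52 (adjusted p = 0.022; -0.50 against 1.23), and the value was -1.07 (adjusted p = 0.10) with wild-type replicates 4 to 7 alone at day 0. Without either Eed-null day 2 array its adjusted p was 0.086 or 0.12. Fibroblast sums in Eed-null cells were 405.3 to 7154 at day 0 and 918.9 to 1037 at day 2, where Postn (-2.03), Col1a2 (-1.96) and Col3a1 (-1.68) fell. In the same interaction 0 of 7 fibroblast markers were above 0 (median -1.18, none called by limma, 2 at an unadjusted p under 0.05 against 3757 of all 13807 genes), and the part of these markers in the B2m value was not tested. Psmb8 (-0.88 ± 0.30, adjusted p = 0.041), Tap1 (-0.69 ± 0.23, adjusted p = 0.045) and Psmb9 (-0.54 ± 0.15, adjusted p = 0.015) were under the fold minimum.

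Among the cell types, T-GFP mesoendodermal cells had the highest group mean of Psmb8, Psmb9, Psmb10, Tapbp and Psme1 over all 15 groups. Their 2 arrays gave Psmb8 signals of 453.6 and 691.8, Psmb10 of 941.1 and 1567, Tapbp of 1985 and 2510 and Psme1 of 1872 and 2501. Against wild-type ES cells at day 0, 6 of 7 members were called, all higher (9.50% of all genes called). They were led by Tapbp (2.74 ± 0.22, adjusted p = 9.8e-14), Psmb8 (2.72 ± 0.23, adjusted p = 4.0e-13), B2m (2.70 ± 0.40) and Psmb10 (1.90 ± 0.25, adjusted p = 6.1e-08). Tap1 rose by 1.39 ± 0.18, and by 0.97 without T-GFP replicate 2. For Psmb8 and Tapbp both T-GFP arrays lay above all arrays of the next group in order, wild-type day 6, and for Psmb9, Psmb10 and Psme1 these 2 groups overlapped.

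Sox1-GFP neuronal progenitors went the other way for Psmb10. Their 3 arrays gave 104.1, 82.4 and 87.5, all below the wild-type day 0 arrays, and 2 of 7 members were called against day 0 (13.4%): Psmb10 (-1.45 ± 0.22, adjusted p = 3.4e-07) and, higher, B2m (1.36 ± 0.34, adjusted p = 0.0010; 0.69, adjusted p = 0.063, with wild-type replicates 4 to 7 alone). Between the 2 reporter populations, which share no wild-type array, 5 of 7 members were called, all higher in T-GFP cells (10.3%). Psmb10 differed by 3.34 ± 0.29 (adjusted p = 8.0e-13), Tapbp by 3.21 ± 0.25 (adjusted p = 2.8e-14) and Psmb8 by 3.14 ± 0.26 (adjusted p = 2.1e-13), each without overlap of the arrays. Psme1 differed by 1.37 ± 0.21 and B2m by 1.34 ± 0.45 (adjusted p = 0.019). Without T-GFP replicate 2, B2m differed by 0.86 (adjusted p = 0.30). Tap1 did not pass (0.48 ± 0.20, adjusted p = 0.061).

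Neural stem cells had the lowest group means of Psmb8 (22.3 ± 9.97), Tapbp (107 ± 13.4) and Psme1 (384 ± 29.1), each n = 2. Against wild-type day 0, 2 of 7 members were called (23.2%): Tapbp fell (-1.29 ± 0.22, adjusted p = 2.1e-06) and B2m rose (1.37 ± 0.40, adjusted p = 0.0032; adjusted p = 0.053 without NSC replicate 1). With wild-type replicates 4 to 7 alone B2m differed by 0.70 (adjusted p = 0.082), and Psmb10 and Psme1, at -0.97 and -0.90 with all arrays, passed at -1.20 and -1.05. With the mean of both probe sets the Tapbp difference was -0.53 (adjusted p = 0.064). Against Sox1-GFP cells 1 of 7 was called (14.3%), Psme1, which was lower (-1.03 ± 0.21, adjusted p = 6.0e-05; -0.96 without NSC replicate 2). The constitutive subunits were lower in NSC than at day 0 as well, Psmb5 by -0.95 ± 0.12 and Psmb6 by -0.65 ± 0.10.

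MEF had the highest B2m of all groups, 3725 and 4450, and high Tapbp, 1042 and 1166. Against wild-type day 0, 2 of 7 were called (24.1%), both higher: B2m by 3.72 ± 0.40 (adjusted p = 7.8e-11) and Tapbp by 1.74 ± 0.22 (adjusted p = 3.2e-09). Against NSC, 4 of 7 were called, all higher (18.9%): Tapbp (3.03 ± 0.27), B2m (2.35 ± 0.50), Psmb8 (1.38 ± 0.28) and Psme1 (1.31 ± 0.22). Psmb10 in MEF, 169.5 and 150.1, was 0.81 lower than at wild-type day 0 on the log2 scale (-0.81 ± 0.25, adjusted p = 0.0059), under the minimum, and -1.04 with wild-type replicates 4 to 7 alone. Psmb8 over Psmb5 was higher in MEF than at day 0 by 0.55 (n = 2 and 7, exact p = 0.028, the smallest possible, adjusted p = 0.048), and Psmb10 over Psmb7 lower (-1.02, exact p = 0.056, adjusted p = 0.076). The Psmb8 over Psmb5 result was lost whichever day 0 array was left out.

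**Figure D4:**
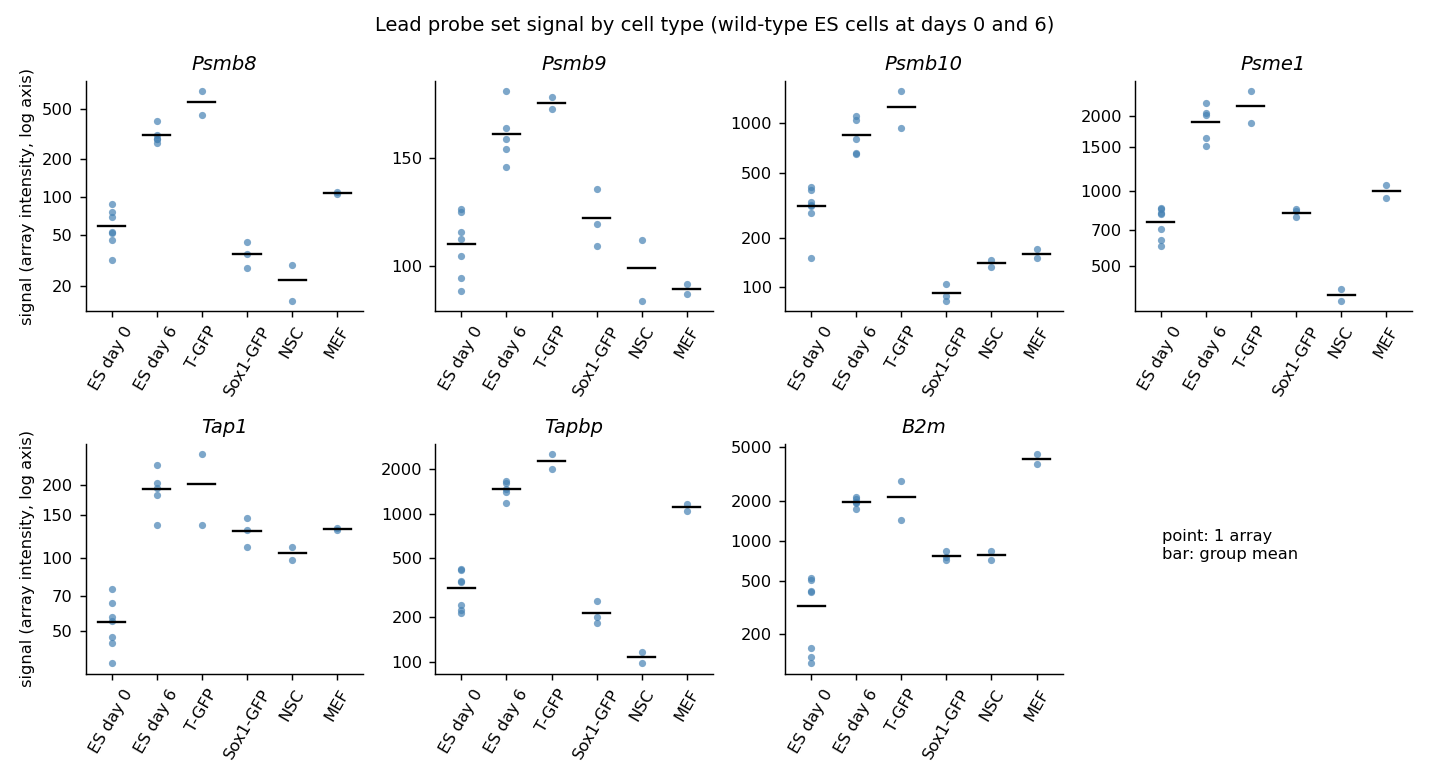
Signal of the lead probe set of each measured member (log axis, array intensity) in wild-type ES cells at days 0 and 6 and in the 4 other cell types, with 1 point per array and a bar at the group mean. T-GFP cells stand at the top for Psmb8 and Tapbp, Sox1-GFP cells at the bottom for Psmb10, and MEF at the top for B2m.

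In the order of the 15 group means, most neighbours overlapped in their arrays: 11 of 14 neighbouring pairs for Psmb8, 13 for Psmb9, 12 for Psmb10, 11 for B2m, 13 for Tap1, 9 for Tapbp and 10 for Psme1. For Psmb10 the order ran from T-GFP cells through wild-type days 6 and 2 down to Sox1-GFP cells and both mutants at day 6. For Tap1 it was headed by both mutants at day 6 (367 ± 49.1 in Ezh2-null and 345 ± 58.1 in Eed-null cells) and ended with undifferentiated wild-type cells (54.4 ± 12.7).

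The rest of the class I pathway moved in part with these genes. Of 7 tested class I heavy chain genes 2 rose in wild-type cells at day 6 (10.3% of all genes called), the classical genes H2-D1 (2.02 ± 0.16, adjusted p = 5.3e-14) and H2-K1 (1.76 ± 0.15, adjusted p = 2.0e-13). H2-K1 went from 306 ± 48.5 to 1111 ± 157 (n = 7 and 5). The same 2 rose at day 2 (1.42 ± 0.17 and 1.44 ± 0.16; 3.43% of all genes called) and at day 8 (1.64 ± 0.22 and 1.02 ± 0.20; 11.4%). The day 8 value of H2-K1 was 0.96 to 0.98 without wild-type day 0 replicate 4 or 5 or day 8 replicate 2. It was 0.86 with arrays centred on their median, 0.84 with a pseudocount raised 4-fold, 0.98 with quantile normalisation, 0.97 with the mean of its probe sets and 0.96 without E14tg1. With the mean of its probe sets H2-D1 was under the fold minimum at days 2, 6 and 8 (0.61, 0.76 and 0.59), so these calls rest on its lead probe set. Of 7 further peptide loading genes 2 rose at day 6 (10.3% of all genes called), the trimming peptidase Erap1 (2.03 ± 0.16) and Tap2, the partner of Tap1 (1.31 ± 0.13; 0.96 in the first array set alone), while the general chaperones of the list did not pass. Tap2 signal was 31.8 ± 11.1 at day 0 and 127 ± 34.3 at day 6. Of 6 tested class II genes limma called none at day 6, with 3 at an unadjusted p under 0.05, as had 8499 of all 13807 genes.

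Of 24 tested interferon response genes 8 rose and none fell at day 6 in wild-type cells (10.3% of all genes called; median 0.51, against 0.04 over all genes; 21 of 24 above 0). Those with the smallest p were the GTPase gene Irgm1 (2.58 ± 0.19), Oasl2 (2.02 ± 0.16), the RNA sensor gene Ifih1 (1.26 ± 0.11) and Parp9 (1.08 ± 0.11). Parp9 lost its call in 3 of 28 alternatives (lowest value 0.84) and Ifih1 in 2 of 27 (0.595), Irgm1 and Oasl2 in 0 of 28. At day 2, 4 had risen (3.43% of all genes called): Irgm1 (1.61 ± 0.21), Bst2 (1.20 ± 0.19) and the guanylate-binding protein genes Gbp2 (1.99 ± 0.38) and Gbp3 (1.11 ± 0.26). Bst2 was at 0.98 in the first array set alone and Gbp3 at 0.85 in the second, and with wild-type replicates 4 to 7 alone at day 0 they were at 0.84 and 0.68. Of 17 regulators of this pathway, 1 rose at day 6 (10.3% of all genes called), the transcription factor gene Irf1 (1.08 ± 0.17, adjusted p = 9.4e-07; 0.99 without wild-type day 6 replicate 3). It was 0.69 in the first array set alone, 0.95 with wild-type replicates 4 to 7 alone at day 0 and 0.99 with arrays centred on their median. Nlrc5, the class I transactivator, was measured and too dim to be tested.

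The standard proteasome genes did not pass. At day 6 in wild-type cells limma called none of 3 constitutive catalytic genes (median 0.11; 1 at an unadjusted p under 0.05), of 11 other genes of the core particle (0.02; 4), of 17 of the regulatory particle (-0.04; 6) and of 8 of assembly and other activators (-0.13; 5). Of all 13807 genes 8499 had an unadjusted p under 0.05 by limma in this comparison, and 10.3% were called. Of the members tested, 5 of 6 were called, with a median of 1.65. Mesoendoderm markers rose in the same arrays: 4 of 4 were called, and their summed signal went from 155.4 to 260 at day 0 to 814.6 to 4404 at day 6. Leukocyte markers did not rise. Their summed signal over 8 genes was 487.6 to 601.3 at day 0 and 308 to 396.2 at day 6, and the defining ones Ptprc, Tyrobp, Fcer1g and Itgam were too dim to be tested.

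In Ezh2-null cells at day 6, against their own day 0, 1 of the 7 heavy chain genes rose, H2-D1 (1.27 ± 0.17; 0.41 with the mean of its probe sets), and none of the 7 peptide loading genes (5 at an unadjusted p under 0.05 by limma, as had 9148 of all 13807 genes). Of 24 interferon response genes 1 rose, Gbp2 (2.01 ± 0.37), and 1 fell, Oas1a (-1.08 ± 0.13), where 16.3% of all genes were called. In Eed-null cells 1 of 24 rose (10.1% of all genes called), Gbp2 (1.26 ± 0.51, adjusted p = 0.044), and none of the 7 heavy chain genes (1 at an unadjusted p under 0.05, as had 6563 of all 13807 genes). At day 2 (3.51% of all genes called) Eed-null cells had raised 2 of the 24, Oasl2 (1.35 ± 0.22) and Irgm1 (1.28 ± 0.28). Erap1 (1.26 ± 0.23) and, of the 17 regulators, Irf1 (1.27 ± 0.25, adjusted p = 2.6e-04 by limma) had risen there as well. At day 2 (2.67% of all genes called) Ezh2-null cells had raised the heavy chain genes H2-K1 (1.20 ± 0.16) and H2-D1 (1.26 ± 0.18). They had also raised Erap1 (1.26 ± 0.18) and 3 of 24 interferon response genes, Irgm1, Gbp3 and Gbp2 (1.45, 1.24 and 1.82). H2-K1 signal was 818.4 and 865.2 in the first array set and 538.1 and 561.9 in the second, against 188.5 to 380.1 at day 0. Values within a set of the other genes in this comparison, and of H2-D1 with the mean of its probe sets, are not given here. Set beside wild type at day 6, as a description, 7 of 24 interferon response genes were past the threshold below wild type in Ezh2-null cells (3.03% of all genes called; median -0.64, against 7e-04 over all genes) and 6 in Eed-null cells (3.10%; -0.53 against -0.002). Irf1 was 1441 ± 353 in wild-type, 501 ± 91.8 in Ezh2-null and 451 ± 25.3 in Eed-null cells (-1.45 and -1.57), and Erap1 differed by -1.30 and -1.52. H2-K1 was past the threshold in Ezh2-null cells (-1.43), and its Eed-null signal was 867 ± 52.0 (n = 2). The summed mesoendoderm signal was 175.2 to 277.3 in Ezh2-null and 187.8 to 204.1 in Eed-null cells at day 6, inside or near the day 0 range, and its part in these differences was not tested.

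T-GFP and Sox1-GFP cells differed in these lists as well. Of 24 interferon response genes 14 were higher in T-GFP cells and none lower (10.3% of all genes called; median 1.17, against -0.07 over all genes), among them the GTPase gene Iigp1 (1.92 ± 0.14), Oasl2 (3.02 ± 0.24), Parp9 (2.06 ± 0.17) and the membrane protein gene Ifitm3 (2.62 ± 0.21). Erap1 (2.78 ± 0.25), Tap2 (1.84 ± 0.20), H2-K1 (1.08 ± 0.23) and H2-D1 (1.18 ± 0.25) were higher, the latter 2 at 0.79 and 0.84 without T-GFP replicate 2 and H2-D1 at 0.59 with the mean of its probe sets. Irf1 was 2204 ± 354 in T-GFP and 310 ± 65.5 in Sox1-GFP cells (n = 2 and 3), a difference of 2.72 ± 0.27 (adjusted p = 3.9e-11), while Jak2, a kinase of interferon receptors, was lower (-1.33 ± 0.17). The 3 constitutive catalytic genes did not pass by limma, 0 of them at an unadjusted p under 0.05 (5976 of all 13807 genes), with differences of 0.12 ± 0.14 for Psmb5, -0.06 ± 0.12 for Psmb6 and -0.08 ± 0.11 for Psmb7. In Eed-null against wild-type cells at day 0, where B2m was higher, H2-D1 (1.34 ± 0.16; 0.60 with the mean of its probe sets) and H2-K1 (1.16 ± 0.15) were called of 7 heavy chain genes (2.26% of all genes called). Of the 24 interferon response genes limma called none there, with 13 at an unadjusted p under 0.05, as had 6778 of all 13807 genes. In the same comparison 6 of 7 fibroblast markers were called higher, and their part in the class I values was not tested.

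**Figure D5:**
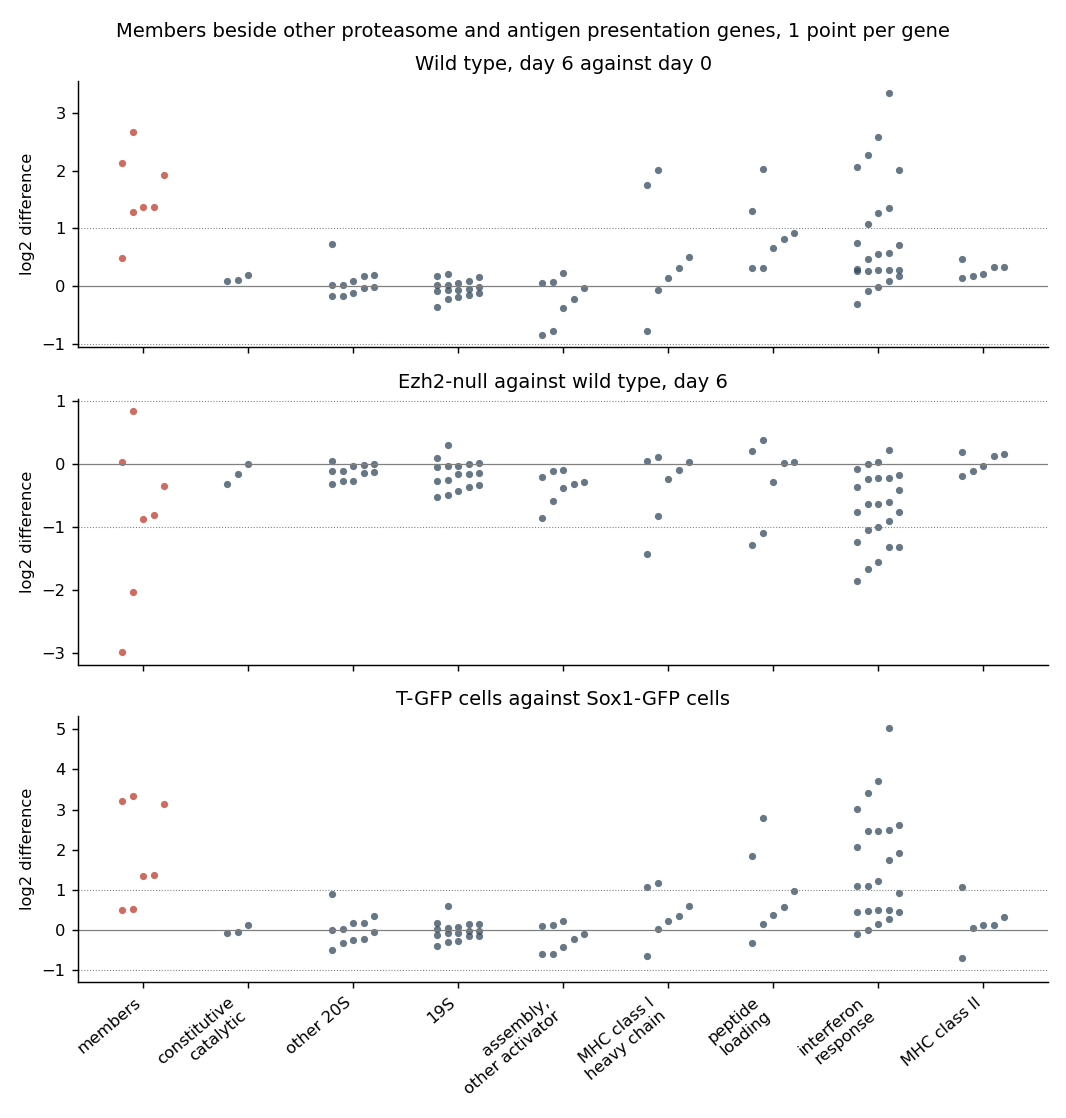
Log2 difference of each tested gene, 1 point per gene, for the members and 8 lists of proteasome, class I, class II and interferon response genes in 3 comparisons, with dotted lines at 2-fold. Points of the constitutive, core and regulatory particle lists lie within 2-fold of 0 in all 3 panels, while members and interferon response genes reach beyond it; the middle panel is the comparison that chose Psmb10.

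Over the 15 group means, Psmb8 and Psmb10 varied most alike among the members (Pearson r = 0.88), followed by Tapbp and Psme1 (0.86), Psmb8 and Tapbp (0.85) and Psmb8 and Psme1 (0.84). Psmb10 and Tap1 (-0.18) and Psmb10 and B2m (-0.10) did not vary alike. Among all other tested genes the 6 most like Psmb10 were Trim54 (0.90), Vrtn (0.89), Dtx3l (0.88), Eomes (0.88), Car2 (0.88) and Tor3a (0.87). Those most like Psmb8 were Dtx3l (0.96), Slc16a10 (0.94), Erap1 (0.93), Oasl2 (0.92), Eomes (0.91) and Vrtn (0.90). Dtx3l, Eomes and Vrtn were on both lists. Eomes is a mesoendoderm factor, and Dtx3l and Oasl2 are interferon response genes. The 15 means come from arrays of 1 platform and include the day 6 groups that chose Psmb10, and the coefficients are a description without a p.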

How the data were processed

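RNA of 53 mouse samples was measured, 1 per Affymetrix Mouse Genome 430 2.0 array. The deposited table holds 1 linear intensity per probe set and array, from 0.4 to 33985.898, as made by the authors. Their background correction, summarisation and scaling are not given in the sources used here, and array medians differ by at most 0.20 on the log2 scale. Of 45037 probe sets 34945 had 1 gene symbol in the platform annotation, 932 several and 9160 none, and the symbols of 34741 matched RefSeq by gene identifier with 0 changed.

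Each gene was represented by its probe set of highest mean, and was tested if that lay above the array median on at least 2 arrays. Values were taken as log2(intensity + 32) and fitted with limma 3.58.1 in R 4.3.3 over all 53 arrays and 15 groups (38 residual and 4.64 prior degrees of freedom). Benjamini-Hochberg adjustment ran over 13807 genes in each of 26 comparisons. On simulated data with these groups, 49 of 50 genes changed 3-fold and 50 of 50 changed 4-fold were called in each of 4 comparisons checked, wild-type days 2 and 8 against day 0, Ezh2-null against wild type at day 8 and T-GFP against Sox1-GFP cells. The simulated noise was independent between arrays and held neither the array sets nor the day 0 split in fibroblast markers. It checks the working of the fit, and nothing about the calls in these data is read from it. No 2 arrays held identical values.

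The members and lists were chosen with earlier results of these data known. The text names the members in every group and their constitutive counterparts. Of a list described in a comparison it names at most 4 called genes with the smallest p, or all where 5 or fewer were called. Not every list is described in every comparison, so some called list genes are not named above. Examples are the class II genes H2-Ab1 (1.18, Eed-null against wild type at day 0) and Cd74 (1.07, T-GFP against Sox1-GFP cells). Others are the assembly genes Psmg1 (-1.82) and Psmg2 (-1.23) in Ezh2-null cells at day 6 against day 0. It also names the 6 genes most correlated with Psmb10 and with Psmb8. Marker lists covered ES cells, mesoendoderm, neural progenitors, neural stem cells, fibroblasts, leukocytes, and endothelium and blood. ES cell markers summed to 13934 to 16844 in wild-type cells at day 0 and 2347 to 3268 at day 6, neural stem cell markers to 10996 to 11298 in NSC, and endothelium and blood markers to 1422 to 5951 in wild-type cells at day 6. Replicate numbers were read as pairs in Ezh2-null against wild-type cells at day 2 (correlations of deviations 0.57 to 0.70 over 4 pairs) and day 6 (0.38 to 0.72 over 5), and in no other comparison. At these days replicates 1 and 2 of both genotypes are in the first array set and the others in the second. Pairing by number and array set therefore cannot be told apart in these correlations. Alternatives changed the normalisation, pseudocount, filter, probe sets, variance model, arrays and call rule.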

Additional observations from a re-analysis of the deposited data

Results flagged for a closer look

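In Eed-null cells at day 0 the B2m signal of replicate 5 was 402, while the other 4 arrays gave 1037 to 1285, a gap wide for the range of the group. That array also had the lowest fibroblast marker sum of the group, 405.3. In Ezh2-null cells at day 0 the Tapbp signal of replicate 3 was 452.2, and the other 5 arrays gave 370.2 to 392.4. In all 49 groups of values were tested for such a gap and 2 stood out, where chance gives about 1 in 20. The change of B2m from day 0 to day 2 differed between Eed-null and wild-type cells by -1.73 on the log2 scale in the limma interaction (adjusted p = 0.022). Over the same days the summed fibroblast marker signal of Eed-null cells went from 405.3 to 7154 at day 0 to 918.9 to 1037 at day 2, and its part in the difference was not tested.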

How the results depend on the processing

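Of 788 alternatives for the counts of called members and the catalytic pairs, 673 left the result on its side of the threshold or within 1.5 times of its count. For single genes 2918 alternatives kept the call, 123 lost it, 93 gained it, 23 moved an untested value by more than the spread between replicates and 0 reversed a direction. For values not named below the cause of a change was not tested. The member counts below are given without the share of all genes called under the same setting. They show only whether a count held. With the pseudocount raised 4-fold the called members were 0 in wild type at day 2, 2 in wild type at day 8, 0 in Ezh2-null at day 2, 1 in Ezh2-null at day 8, 0 in Eed-null at day 2, 1 in Eed-null against wild type at day 0, 1 in Sox1-GFP cells, 1 in NSC against day 0 and 0 in NSC against Sox1-GFP cells. With the pseudocount lowered to 8 they were 2 between the mutants at day 0 and 4 in NSC. Quantile normalisation gave 2 in wild type at day 8 and 0 in NSC against Sox1-GFP cells. Centring each array on its median gave 2 in wild type at day 8, 2 in Eed-null at day 2, 2 between the mutants at day 0 and 4 in NSC. When the probe sets of each gene were averaged there were 3 in wild type at day 2, 2 at day 8, 1 in Ezh2-null at day 2, 1 at day 8, 1 in NSC and 2 in the Eed-null interaction. With the fit limited to the arrays compared the Eed-null interaction had 0.

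The first array set alone gave 3 in wild type at day 2 and 4 in Ezh2-null against wild type at day 6. The second alone gave 3 in wild type at day 2, 1 in Ezh2-null at day 2, 1 against wild type at day 2 and 1 in the Ezh2-null interaction at day 2. With wild-type replicates 4 to 7 alone at day 0 there was 1 in wild type at day 2, 1 at day 8, 1 in Eed-null against wild type, 1 in Sox1-GFP cells and 0 in the Eed-null interaction. Without E14tg1 there was 1 in Eed-null against wild type at day 0, 1 in the Ezh2-null interaction at day 8 and 2 in the Eed-null interaction. With CJ7 alone as wild type there was 1 in Eed-null against wild type at day 0 and 2 in the Eed-null interaction. Without a minimum fold the counts were 5, 4 and 4 in Ezh2-null cells at days 2, 6 and 8, 2 in Eed-null at day 2, 1 and 6 in Ezh2-null against wild type at days 2 and 6, 5 in Eed-null against wild type at day 0, 4 between the mutants, 4 in Sox1-GFP cells, 6 in NSC, 5 in MEF, 2 in NSC against Sox1-GFP cells and 4 in the Eed-null interaction. At 1.5-fold they were 5 in Ezh2-null and 2 in Eed-null cells at day 2, 1 and 5 in Ezh2-null against wild type at days 2 and 6, 2 between the mutants, 6 in NSC, 5 in MEF, 2 in NSC against Sox1-GFP cells and 3 in the Eed-null interaction. Many of all 13807 genes differ without a minimum fold as well. By limma 9148 had an unadjusted p under 0.05 in Ezh2-null cells at day 6 and 8599 in NSC against day 0. Nothing about the members is read from these counts.

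The replicate number as a block was tried in 7 comparisons and left 5 counts of members as they were. It gave 1 called member in Eed-null against wild-type cells at day 0 and 1 at day 2, where the samples share only a number (correlations of deviations -0.15 to 0.14 and -0.05 to 0.05), and over all genes 666 in place of 143 at day 2, 956 in place of 428 at day 6 and, in Ezh2-null cells at day 8, 235 in place of 147. In Ezh2-null against wild-type cells at days 2 and 6, where the numbers were read as pairs, it changed no call of a member count. At day 8 the same-numbered arrays correlated at -0.20, and crossed numbers, tried after the data were seen, gave 0 called members and 234 genes.

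Leaving out 1 array at a time gave 4 to 5 called members in wild type at day 2, 5 to 5 at day 6 and 2 to 4 at day 8. In Ezh2-null cells the range was 1 to 2 at day 2, 2 to 3 at day 6 and 2 to 2 at day 8, and in Eed-null cells 1 to 2 at day 2 and 2 to 3 at day 6. Against wild type it was 0 to 0, 0 to 1, 2 to 2 and 0 to 0 for Ezh2-null cells (days 0, 2, 6 and 8) and 1 to 2, 0 to 0 and 3 to 3 in Eed-null cells at days 0, 2 and 6. It was 1 to 2 between the mutants, 5 to 6 in T-GFP cells, 2 to 2 in Sox1-GFP cells, 2 to 3 in NSC and 2 to 2 in MEF against day 0. It was 4 to 5 in T-GFP against Sox1-GFP cells, 0 to 1 in NSC against Sox1-GFP cells and 4 to 4 in MEF against NSC. The interactions gave 0 to 0 at day 2 and 0 to 1 at day 8 for Ezh2-null cells, and 0 to 1 for Eed-null cells at day 2.

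For the catalytic pairs, by the exact permutation test, Psmb8 over Psmb5 in MEF lost its adjusted p with averaged probe sets (0.304), the higher pseudocount (0.255) and quantile normalisation (0.517). Psmb9 over Psmb6 lost it in Ezh2-null cells at day 0 with quantile normalisation (0.252), in wild type at day 2 with averaged probe sets (0.357), the higher pseudocount (0.197) and quantile normalisation (0.304), and in wild type at day 6 with the higher pseudocount (0.123) and quantile normalisation (0.275). With 1 array left out, Psmb8 over Psmb5 ranged from 1.31 to 1.45 in wild type at day 2, 1.77 to 1.88 at day 6, 0.140 to 0.326 in undifferentiated Ezh2-null cells, and 0.41 to 0.70 in MEF. Psmb9 over Psmb6 ranged from 0.267 to 0.445, 0.226 to 0.334, 0.188 to 0.297 and -0.129 to 0.182. Psmb10 over Psmb7 ranged from 0.942 to 1.18 in wild type at day 2, -0.204 to 8e-04 in undifferentiated Ezh2-null cells, and -1.36 to -0.684 in MEF. The Psmb9 over Psmb6 result was not kept in 9 of 11 such cases at wild-type day 2 and in 5 of 12 at day 6. That of Psmb8 over Psmb5 was not kept in 1 of 13 in undifferentiated Ezh2-null cells. In MEF it was lost whichever day 0 array was left out.

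Counts over all genes moved by over 1.5 times in 66 cases, 24 of them with the higher pseudocount (203 in place of 474 in wild type at day 2) and 9 with averaged probe sets (272 in place of 418 in Ezh2-null against wild type at day 6). The second array set alone gave 795 in place of 418 there and 103 in place of 17 at day 2. Dim probe sets such as Tap2, Psmb8 at day 0 and the lesser Tap1 sets lie near the array median, where the pseudocount sets the size of a difference.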
